A study of Mus musculus with 6 samples.

Results

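The 9 genes described here encode megakaryocyte regulators and platelet granule cargo: the transcription factors Fli1, Runx1 and Nfe2, the alpha-granule proteins Pf4, Ppbp, Selp and Vwf, and the signalling and surface proteins Rgs18 and Cd9. They were picked by name from the 55487 genes of 1 deposited count table, with fasted-against-control differences in these libraries already known, so their differences between the groups are given as a description and not as a test. All 9 passed the filter on low counts. The study sorted megakaryocyte-erythroid progenitors, marrow cells that can form red cells or platelets, from wild-type C57BL/6 mice aged 8 weeks. RNA-seq was done on 3 libraries from control mice and 3 libraries from mice fasted for 6 h, to ask how fasting acts on red cell formation. No treatment other than the fast was named, and the labels do not say whether a library came from 1 mouse or a pool, so the spread between libraries may be technical in part.

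Megakaryocytes are the large marrow cells that shed platelets. FLI1, an ETS-family factor, and RUNX1, which pairs with CBFB, work with GATA1 at megakaryocyte genes, and NF-E2, a pair of the NFE2 protein with a small MAF protein, acts late, when platelets are released. PF4 and PPBP are chemokines stored in alpha granules, P-selectin (Selp) is a granule membrane receptor that reaches the platelet surface on activation, and von Willebrand factor (Vwf) is a large adhesive protein that endothelium also makes. RGS18 damps G protein signalling in platelets, and CD9 is a tetraspanin of the platelet surface that many other cells carry. FLI1, RUNX1 and CD9 are also found in stem cells and in other blood lineages.

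Promoters were taken from RefSeq (build GRCm38.p6, 250 bases before and 50 bases from the start site on) for the members with an entry in the set used. They matched 5 of the 9 members: Pf4, Ppbp, Selp, Cd9 and Runx1, the last with 2 promoters. Fli1, Nfe2, Vwf and Rgs18 had no entry. Pf4 and Ppbp are neighbours on chromosome 5 with 2371 bases between them, on the same strand, yet lay at opposite ends of the order of levels. Their 250 bases before the start, chr5:90772185-90772434 (plus strand) for Pf4 and chr5:90768268-90768517 (plus strand) for Ppbp, read as follows, with an ETS-type word (AGGAAG, on either strand) in capitals.
Pf4: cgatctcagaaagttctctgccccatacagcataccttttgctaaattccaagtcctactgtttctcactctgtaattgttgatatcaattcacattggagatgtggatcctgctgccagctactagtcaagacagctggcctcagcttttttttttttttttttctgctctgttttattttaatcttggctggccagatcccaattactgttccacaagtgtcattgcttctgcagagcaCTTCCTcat
Ppbp: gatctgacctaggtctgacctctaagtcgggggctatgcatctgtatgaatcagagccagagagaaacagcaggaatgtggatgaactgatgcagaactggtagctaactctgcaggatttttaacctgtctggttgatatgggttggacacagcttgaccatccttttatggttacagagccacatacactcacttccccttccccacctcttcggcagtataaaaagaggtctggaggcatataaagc
The word begins 9 bases before the start of Pf4, and none was found in the printed stretch of Ppbp. The same word stood before the start in Selp, Cd9 and the distal promoter of Runx1, shown with 20 bases on either side from chr1:164115180-164115225 (plus strand), chr6:125494938-125494983 (minus strand) and chr16:92826173-92826218 (minus strand).
Selp: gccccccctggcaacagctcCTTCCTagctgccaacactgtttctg
Cd9: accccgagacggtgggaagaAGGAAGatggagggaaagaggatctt
Runx1 distal: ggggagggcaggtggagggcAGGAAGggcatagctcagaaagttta
Over the full 300 bases, 35.4% of all 32851 promoters in the table held AGGAAG on either strand, so its presence in 4 of the 6 promoters is a description of the letters only. A GATA-type word (AGATAA), held by 11.2% of all promoters, was found in Pf4 alone among the 6, with its first base 36 bases after the start base. A RUNX-type word (TGTGGT), held by 16.8%, occurred in the distal Runx1 promoter, at 2 places after the start. An NF-E2-type word (TGAGTCA), held by 5.20%, was in none of the 6 windows. None of these words overlaps another there, and a word absent from such a window says nothing about the factor.

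The libraries differed in depth and in background, and both touch the values below. Total gene counts ranged from 22445970 to 30246110 in control and from 12797144 to 18225191 in fasted libraries. Odorant and vomeronasal receptor genes (1437 genes, with no known role in these progenitors) received 8.98 to 14.7 counts per kilobase in control and 14.2 to 15.97 in fasted libraries. Spread over all exons, that rate is 3.90 to 8.60% of the counts in control and 11.5 to 14.6% in fasted libraries. Markers of the erythroid lineage were present, with 11 of 12 more than 5-fold over this rate and a summed level of 4188 to 8740 CPM in control and 4473 to 6512 CPM in fasted libraries. CPM are counts scaled to library size with TMM factors, which were set from all 36508 genes tested (the first scaling). Under that scaling the median log2 fold change, fasted minus control, was 0.32 over all genes tested and -0.50 over the 10637 of them whose mean count was at least 5-fold over the background, called clearly expressed genes here. Factors taken from the clearly expressed genes alone (the second scaling) moved these medians to 0.82 and 0.02, so values of the members are given under both scalings. Of the 9 members, 6 were clearly expressed, and Ppbp, Selp and Vwf were not.

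In control libraries Pf4 was the most abundant member per unit of length. Length-scaled levels (TPM), computed here from the deposited counts and gene lengths, were 310 ± 28.5 (SD, n = 3) for Pf4, 274 ± 155 for Nfe2, 156 ± 64.0 for Rgs18, 98.4 ± 9.29 for Cd9 and 82.5 ± 14.0 for Fli1. The ranges of neighbours in this order overlapped down to Fli1. Runx1 followed at 28.5 ± 2.48 TPM, apart from Fli1 above and Selp below. Selp at 8.18 ± 3.85 and Vwf at 7.59 ± 0.493 TPM overlapped, and Ppbp was lowest at 4.71 ± 0.929 TPM, below every control value of Vwf. In the fasted libraries the TPM order was the same but for Vwf (8.55 ± 1.15) and Selp (6.29 ± 1.13), whose ranges again overlapped, and Pf4 stood at 154 ± 53.8 TPM (SD, n = 3 each).

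**Figure D1:**
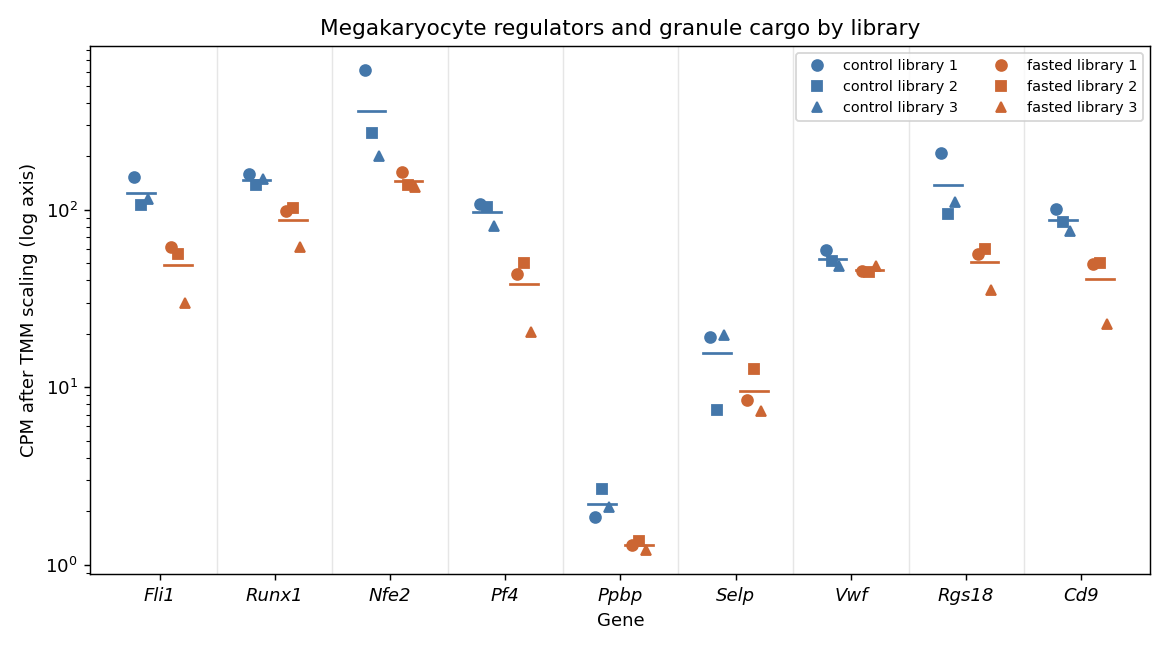
CPM of the 9 genes on a log axis, with a symbol for each library and a line at the mean of each group (3 libraries each). Fasted symbols lie below all control symbols except for Selp, and fasted library 3 is the lowest of the 6 for every gene but Vwf.

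The 3 transcription factor genes were all lower in the fasted libraries. Fli1 (ENSMUSG00000016087.13, GRCm38 chromosome 9, 32422204 to 32542861, minus strand) had 153, 106 and 116 CPM in control libraries 1, 2 and 3 and 61.4, 56.1 and 29.8 CPM in fasted libraries 1, 2 and 3. The groups did not overlap, and fasted library 3 was lowest. Its log2 fold change was -1.35 (SE 0.27), a 2.54-fold lower level, and -0.84 (SE 0.20) under the second scaling. In bulk RNA, fewer cells of a type and less RNA per cell cannot be told apart, here and for the genes that follow.

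Nfe2 (ENSMUSG00000058794.12, chromosome 15, 103248212 to 103258403, minus strand) varied most in the control group, with 614, 270 and 200 CPM in control libraries 1, 2 and 3 and 163, 138 and 134 CPM in fasted libraries 1, 2 and 3. Control library 1 stood far above the rest, while the fasted libraries lay close together. The log2 fold change was -1.32 (SE 0.32) under the first scaling and -0.73 (SE 0.32) under the second, where fasted library 1 lay above control library 3. Control library 1 decided much of this: without it the value was -0.71 in the fit over all genes and -0.27 in the fit restricted to clearly expressed genes. Leaving out each of the other 5 libraries gave -0.99 to -0.67 in the restricted fit. Erythroid factor genes, chosen after their values were seen, had a like order in the control group: Klf1 had 858, 585 and 225 CPM and Gata1 480, 306 and 149 CPM in control libraries 1, 2 and 3. The part of erythroid cells in the Nfe2 values was not tested.

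Runx1 (ENSMUSG00000022952.17, chromosome 16, 92601466 to 92826149, minus strand) differed least of the 3 factor genes. It had 159, 137 and 148 CPM in control and 98.7, 102 and 61.7 CPM in fasted libraries, with no overlap. Its log2 fold change was -0.76 (SE 0.24) under the first scaling, beside a median of -0.50 for clearly expressed genes, and -0.26 (SE 0.17) under the second, where the groups overlapped. It shares 106 exonic bases with an antisense gene model, and the counting's use of strand is not given in the sources used here.

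Among the granule cargo genes the difference between groups under the first scaling was smallest for Vwf and largest for Pf4. Pf4 (ENSMUSG00000029373.7, chromosome 5, 90772435 to 90773383, plus strand) had 107, 104 and 80.5 CPM in control and 43.2, 50.1 and 20.6 CPM in fasted libraries, with no overlap. Its log2 fold change was -1.36 (SE 0.28), a 2.56-fold lower level, and -0.86 (SE 0.22) under the second scaling, where no control value fell to the fasted range either. Background made up 0.265 to 0.627% of its counts in control and 1.20 to 2.72% in fasted libraries.

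Vwf (ENSMUSG00000001930.17, chromosome 6, 125546774 to 125686679, plus strand) had 59.5, 51.3 and 48.0 CPM in control and 45.3, 44.6 and 47.9 CPM in fasted libraries, so the highest fasted value lay just under the lowest control value. Under the second scaling it had 48.4, 48.6 and 50.8 CPM in control and 61.2, 54.4 and 69.0 CPM in fasted libraries, with the fasted libraries higher. The log2 fold change was -0.20 (SE 0.22) under the first scaling and 0.32 (SE 0.17) under the second, so its direction depended on the scaling. Over its 16.1 kilobases of exon the background rate alone would give 10.6 to 23.5% of its counts in control and 26.1 to 32.4% in fasted libraries. After that rate was subtracted, with factors from clearly expressed genes, the means were 40.6 CPM in control and 43.4 CPM in fasted libraries, a log2 ratio of 0.098. Markers of endothelium, another source of VWF, summed to 150 to 187 CPM in control and 147 to 174 CPM in fasted libraries. Of these, 3 of 9 were clearly expressed and none was at 0 counts in all libraries. Egfl7 made the largest part of the sum, with means of 79.4 CPM in control and 58.4 CPM in fasted libraries. Cdh5, Kdr and Flt1 were not clearly expressed, at 0.741 to 3.43 times the background. The part of endothelial cells in the Vwf level was not tested.

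Selp (ENSMUSG00000026580.16, chromosome 1, 164115264 to 164150026, plus strand) had 19.2, 7.46 and 19.8 CPM in control and 8.42, 12.7 and 7.38 CPM in fasted libraries. Control library 2 fell among the fasted libraries, and the log2 fold change of -0.71 (SE 0.34) became -0.22 (SE 0.35) under the second scaling. Background made up 29.1 to 47.9% of its fasted counts, and it shares 186 and 438 exonic bases with 2 gene models on the other strand.

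Ppbp (ENSMUSG00000029372.7, chromosome 5, 90768518 to 90770063, plus strand) was close to the background. It had 42, 60 and 44 counts in control and 20, 26 and 23 counts in fasted libraries, that is 1.84, 2.68 and 2.10 CPM against 1.29, 1.36 and 1.20 CPM. These counts were 2.76 to 4.32 times the background in control and 1.30 to 1.504 times in fasted libraries, so 66.5 to 77.0% of the fasted counts could be background. The log2 fold change was -0.78 (SE 0.44) under the first scaling, -0.28 (SE 0.47) under the second and -1.61 after subtraction of the background. Under the second scaling its groups overlapped.

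**Figure D2:**
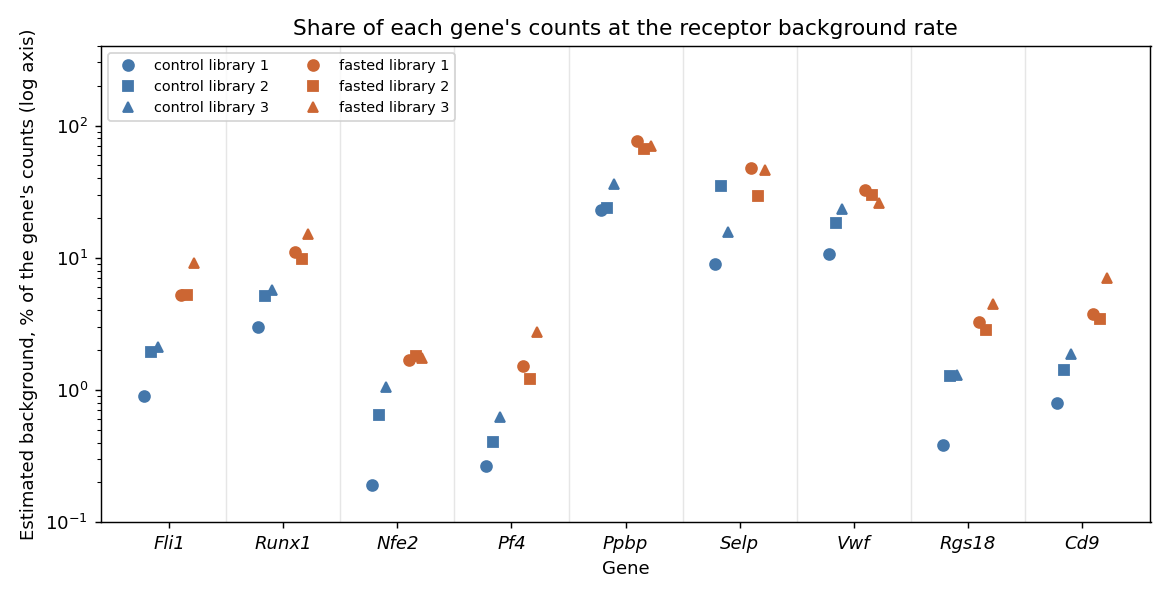
Estimated background as a percentage of each gene's counts, on a log axis, by library. The share is highest for Ppbp, Selp and Vwf (9.05 to 77.0%) and at most 15.2% for the other 6 genes, and each gene's mean is higher in the fasted group.

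Rgs18 and Cd9, the signalling and surface genes, were both lower in the fasted libraries. Rgs18 (ENSMUSG00000026357.3, chromosome 1, 144752683 to 144775435, minus strand) had 210, 94.2 and 110 CPM in control and 56.3, 59.9 and 35.5 CPM in fasted libraries. Its log2 fold change of -1.45 (SE 0.29), a 2.73-fold lower level, was the largest in size of the 9, and it was -0.91 (SE 0.22) under the second scaling. Control library 1 stood high, and without it the value was -1.02 under the first scaling.

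Cd9 (ENSMUSG00000030342.8, chromosome 6, 125460266 to 125494791, minus strand) had 101, 84.8 and 76.1 CPM in control and 49.8, 49.99 and 22.7 CPM in fasted libraries. The groups did not overlap under either scaling, and the log2 fold change was -1.10 (SE 0.27) under the first and -0.60 (SE 0.21) under the second. Cd9 and Vwf lie 51982 bases apart on chromosome 6, on opposite strands, and differed in pattern over the libraries by 0.64, the root mean square of the difference in centred log2 CPM. Cd9 shares 218 exonic bases with a gene model on the other strand.

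**Figure D3:**
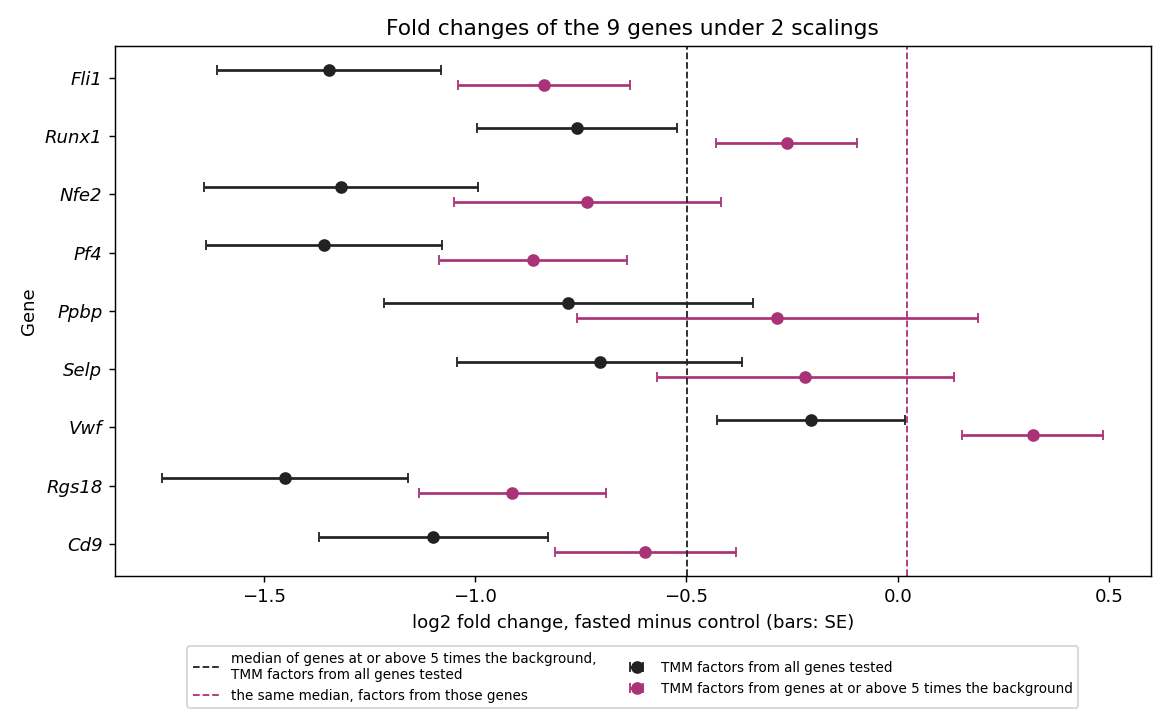
Log2 fold changes (fasted minus control, bars are SE) of the 9 genes with TMM factors from all genes tested (black) and from clearly expressed genes (purple), with dashed lines at the median of the latter genes. Under the first scaling all 9 are below 0, and under the second Vwf is above 0 at 0.32 and the other 8 below.

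In the edgeR fit over all genes, 5 of the 9 members (Fli1, Nfe2, Pf4, Rgs18 and Cd9) were among the genes lower at a Benjamini-Hochberg adjusted p under 0.05, where 3.82% of all genes tested and 12.9% of the clearly expressed ones were called lower. The members were chosen from this contrast, so nothing is read from that count. Under the second scaling 3 members (Fli1, Pf4 and Rgs18) were called lower, beside 0.698% of all genes tested and 2.36% of the clearly expressed ones. When only the 10637 clearly expressed genes were scaled and tested, edgeR called 0 of the 6 members tested and 0 genes in all (0.0%), while 5 of those 6 members and 2109 genes had an unadjusted p under 0.05. In that fit 8.3% of genes were lower at an unadjusted p under 0.05. Values of 8 of the 9 members did not overlap between groups and were lower in fasted libraries under the first scaling, beside 15.1% of all genes tested and 47.6% of the clearly expressed ones. Under the second scaling this held for 4 members (Fli1, Pf4, Rgs18 and Cd9), beside 3.9% and 12.9%, and Vwf was higher in every fasted library than in any control library, beside 40.7% of all genes tested.

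Single libraries decided how many genes were called, the members among them. Without fasted library 3 the edgeR fit over all genes called 0 of the 9 members, of which 6 had an unadjusted p under 0.05. That fit called 7 of the 38327 genes tested, of which 6942 had an unadjusted p under 0.05. Without fasted library 1 or control library 2 edgeR called Fli1 and Rgs18 alone among the members, and 105 and 190 genes in all. Without each of the other 3 libraries it called 4 to 6 members and 1364 to 5379 genes in all. The log2 fold changes of Fli1, Pf4, Rgs18 and Cd9 stayed between -1.68 and -0.82 in these 6 fits, and between -1.14 and -0.34 in the same fits restricted to clearly expressed genes. Fasted library 3 also held the lowest summed megakaryocyte and platelet markers (164 CPM, against 287 and 317 CPM in fasted libraries 1 and 2 and 371 to 744 CPM in control) and the lowest granulocyte and monocyte markers (1124 CPM, against 2355 to 3279 CPM in the other fasted libraries and 4517 to 17406 CPM in control). All marker sums given here are under the first scaling, where clearly expressed genes had a median log2 fold change of -0.50. The sums were not computed under the second scaling, so the size of the gap between groups is not settled by them. Of 9 megakaryocyte and platelet markers tested, edgeR called 2 lower under the first scaling. Under the second it called 0 lower and 1 higher, where 255 of all genes tested were called lower and 4990 higher. The 6 clearly expressed genes of that list had log2 fold changes of at most 0.074 in the fit restricted to clearly expressed genes. Nothing is read from the 1 higher call. Of 13 granulocyte and monocyte markers tested, edgeR called 4 lower under the first scaling and 1 lower under the second. Of the megakaryocyte and platelet list 6 of 10 genes were clearly expressed, and of the granulocyte and monocyte list 13 of 13. In these 2 lists no gene was at 0 counts in all libraries. The low place of fasted library 3 was not particular to them. It was also the lowest of the 6 libraries for stem cell, B lymphocyte, mast cell and basophil, and endothelial markers. For erythroid markers and for T and NK markers it was not the lowest. Mast cell and basophil markers, 5 of 8 clearly expressed, summed to 234 to 374 CPM in control and 106 to 150 CPM in fasted libraries. Stem cell markers (5 of 10 clearly expressed) summed to 434 to 560 CPM in control and 307 to 521 CPM in fasted libraries, B lymphocyte markers (5 of 8) to 89.9 to 141 and 75.4 to 185 CPM, and T and NK markers (1 of 8) to 37.0 to 47.6 and 50.6 to 58.3 CPM. The part of other cell types in the member values was not tested.

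The members fell into different patterns over the 6 libraries. Likeness was measured as the root mean square difference of log2 CPM centred on each gene's mean, over 9002 other clearly expressed genes with a mean of at least 5 CPM (9003 for Ppbp, Selp and Vwf, which are not among them). This measure does not change with the scaling but includes the difference between the groups, which all the lower members share. The gene nearest to Pf4 was Cd9 (difference 0.16), followed among named genes by Tifab (0.19) and Fli1 (0.20). From Fli1 the nearest were Acot7 (0.049), Rab32 (0.052) and Cd48 (0.097), with Cd9 at place 21, Pf4 at place 60 and Rgs18 at place 86 of 9002. Cd9 was nearest to Bin2 (0.085), S100a1 (0.089) and Gng11 (0.093).

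Rgs18 was nearest to Muc13 (0.073), Nrros (0.098) and Mmrn1 (0.11), the last the gene of a platelet alpha-granule protein. Nfe2, high in control library 1, was nearest to Tsen34 (0.10), Fut7 (0.10) and Zfp825 (0.12), and Rgs18 was the closest member to it, at place 463. Runx1 was nearest to Gnaq (0.031), Gltp (0.032) and Tagln2 (0.039), and its closest member, Cd9, came at place 2447. Vwf stood apart, with Trappc9 (0.030) and Pcgf3 (0.051) nearest and with Fli1, Pf4, Nfe2, Rgs18 and Cd9 all at place 8579 of 9003 or beyond. Selp was nearest to Ecm1 (0.13), Slc35f2 (0.17) and Pim2 (0.20), and Ppbp to Plpp5 (0.075), Ndufa4 (0.081) and Atp5e (0.083), both from values in which background had a large share.

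**Figure D4:**
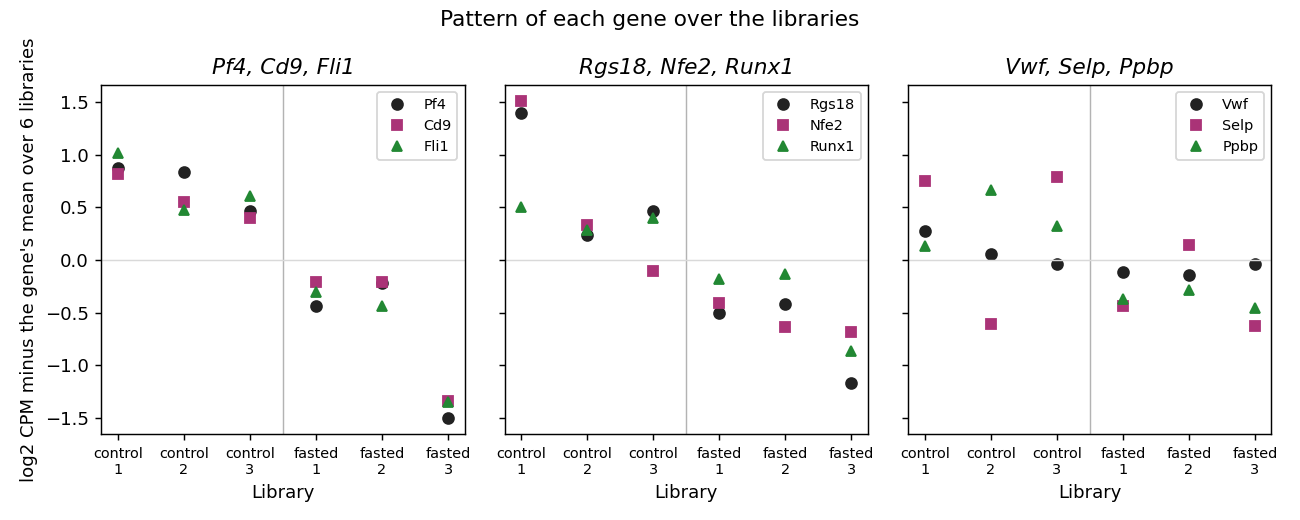
Log2 CPM of each member minus its mean over the 6 libraries, control libraries left and fasted libraries right of the line in each panel. Pf4, Cd9 and Fli1 lie close together in every library, Nfe2 and Rgs18 are highest in control library 1, and Vwf stays near 0.

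Around the members, 125 other genes of 9 megakaryocyte and platelet lists were examined, of which 124 were tested. In the edgeR fit over all genes 16 of them fell, 0 rose, and 108 did not pass, where 3.82% of all genes tested were called lower. Their median log2 fold change was -0.41, beside 0.32 for all genes tested. The 16 were all among the 87 that were clearly expressed, whose median was -0.63, beside -0.50 for all clearly expressed genes, of which 12.9% were called lower. Under the second scaling 4 of the 124 were called lower and 15 higher. Over all 36508 genes tested that scaling called 255 lower and 4990 higher, 14.4% in either direction. Of those 4990 genes, 4646 were not clearly expressed. Among the 87 clearly expressed pathway genes it called 4 lower and 3 higher, beside 251 lower and 344 higher of 10637. By list, higher and lower calls under that scaling were 0 and 0 for megakaryocyte transcription factors. They were 2 and 0 for ETS, RUNX and NF-E2 relatives and partners, 2 and 1 for granule cargo, and 0 and 2 for granule assembly and secretion. Platelet receptors had 2 and 0, platelet formation and signalling 2 and 0, and tetraspanins 3 and 1. The RGS family had 1 and 0, and selectin and chemokine relatives 3 and 0. In the fit restricted to clearly expressed genes edgeR called 0 of 87, and 16 (18.4%) had an unadjusted p under 0.05, beside 19.8% of all genes in that fit. In the sentences that follow, a value in that restricted fit is named as restricted, and no listed gene named there had an edgeR adjusted p under 0.131 in it. Genes said there to fall were called lower under the first scaling, where 12.9% of all clearly expressed genes were called lower.

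Of 15 other megakaryocyte transcription factor genes, 2 fell: Meis1, a homeobox factor of stem cells and megakaryocytes (log2 fold change -1.03, edgeR adjusted p 0.046, restricted -0.51), and Lyl1, a basic helix-loop-helix factor (-0.83, edgeR adjusted p 0.046, restricted -0.30). None of 17 ETS, RUNX and NF-E2 relatives and partners passed the edgeR test, and their median was -0.51, beside -0.50 for clearly expressed genes. In edgeR 8 of the 17 (47.1%) had an unadjusted p under 0.05, beside 28.6% of all genes tested and 49.2% of the clearly expressed ones. The most abundant of the 17 were Elf1 (-0.51, edgeR adjusted p 0.18), an ETS factor, and Spi1 (-0.88, edgeR adjusted p 0.11), the PU.1 gene of myeloid cells. Limma-voom called 0 of the same 17 and DESeq2 called 7, all lower. Over all 36508 genes tested limma-voom called 1044 lower and DESeq2 4820 lower, so nothing is read from the 7.

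Of 16 other granule cargo genes, 7 were clearly expressed and 3 of these fell: Serpine2, a protease inhibitor (66.4 ± 14.6 to 23.1 ± 3.82 CPM, SD, n = 3 each, log2 fold change -1.53, edgeR adjusted p 0.0085, restricted -1.01), Mmrn1, multimerin (-1.30, edgeR adjusted p 0.033, restricted -0.78), and Angpt1, a ligand of the TIE2 receptor (-1.17, edgeR adjusted p 0.033, restricted -0.65). The median over all 16 was 0.10. In the granule assembly and secretion list 4 of 15 fell: Rab27a, a GTPase of granule docking (119.6 ± 22.4 to 40.9 ± 10.3 CPM, SD, n = 3 each, log2 fold change -1.55, edgeR adjusted p 0.0085, restricted -1.07), and Snap23, Vamp8 and Stxbp2, parts of the membrane fusion machinery (-0.94, -0.92 and -0.81, edgeR adjusted p 0.0346 to 0.0465, restricted -0.41, -0.41 and -0.30).

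Among 17 platelet receptor genes tested, 2 fell, among them Treml1, a receptor of platelet granules (log2 fold change -1.53, edgeR adjusted p 0.043, restricted -0.98). In the list of platelet formation and signalling 2 of 15 fell, Ptgs1 and Tbxas1, enzymes on the way to thromboxane (-1.02 and -0.83, edgeR adjusted p 0.037 and 0.043, restricted -0.53 and -0.32). Of 10 tetraspanins besides Cd9, Cd63, found in lysosome-related granules, fell alone (137 ± 31.7 to 48.1 ± 9.96 CPM, SD, n = 3 each, log2 fold change -1.51, edgeR adjusted p 0.0085, restricted -1.04). Rgs19 was the only 1 of 7 relatives of Rgs18 to fall (-1.07, edgeR adjusted p 0.037, restricted -0.54). Selplg, the ligand of P-selectin on leukocytes, was the only 1 of 12 selectin and chemokine relatives to fall (-0.89, edgeR adjusted p 0.0465, restricted -0.38).

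**Figure D5:**
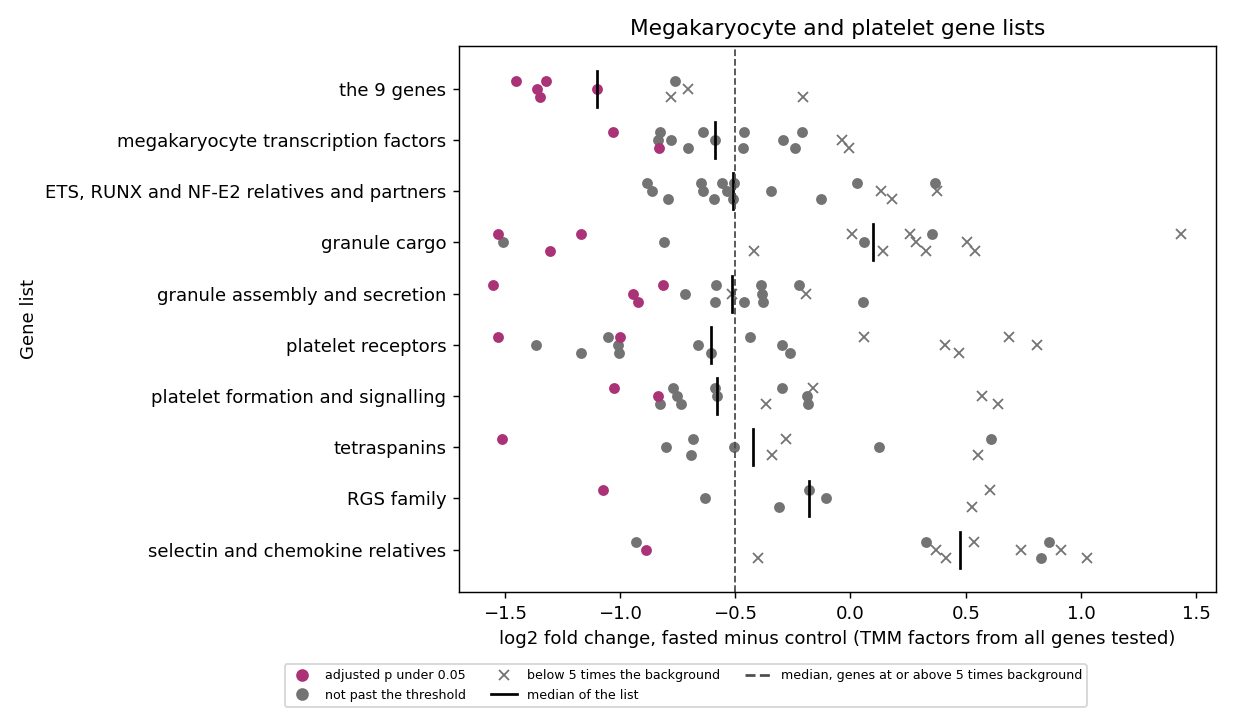
Log2 fold changes (fasted minus control, TMM factors from all genes tested) of the 9 genes and of 9 other lists, a symbol per gene, with each list's median as a bar and the median of clearly expressed genes as a dashed line. Genes past the threshold (purple) are all lower, and crosses mark genes that were not clearly expressed, which lie mostly to the right.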

How the data were processed

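Sorted progenitors were sequenced in 6 libraries. The authors deposited raw counts per gene with gene lengths. HISAT2 2.2.1, featureCounts 2.0.1 and GRCm38 are named, with no settings, per the submitters' processing notes. Annotation release and use of strand are not given in the sources used here. Columns were matched to libraries through their descriptions. Symbols and GRCm38 coordinates came from GENCODE M21, which matched 55227 of 55487 identifiers without version and all 9 members with version and length.

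Genes kept by filterByExpr (36508) were fitted with edgeR 4.0.16 in R 4.3.3 (TMM, estimateDisp and glmQLFit with robust settings, group as the only term), tested by quasi-likelihood and adjusted by Benjamini-Hochberg at 0.05. The SE was the log2 fold change divided by the square root of F. Background was the receptor rate times gene length, and clearly expressed genes had at least 5 times that amount on average over the libraries. The restricted fit used the 10637 such genes. The log2 CPM for likeness had a prior count of 1. On simulated counts the fit called most but not all of the changed genes, each with the right sign, and a few unchanged ones, and the recovery asked of it was lowered after this was seen. Totals of 12797144 to 30246110 counts per library set the counting error.

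Named genes were the 9 members, the genes passing in each list (at most 4, by mean CPM, or the 2 most abundant where none passed) and the 3 nearest genes per member, passing over clone-type names. The results of 2 genes that this rule names are not reported here. Members and lists were chosen with earlier results of these data known. Alternatives included DESeq2 1.42.0, which gave no adjusted p for 11325 genes, and limma-voom (limma 3.58.1).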

Additional observations from a re-analysis of the deposited data

How the results depend on the processing

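As reported, 1813 genes, 5 members and 16 other pathway genes were called, and the members' median log2 fold change was -1.10. Genes called were 5301 with DESeq2, 2973 with RLE factors, 2849 with no filter, 558 without robust settings, 5 at a mean of at least 5 CPM, 4587 with library totals and 5245 under the second scaling. By the split of higher against lower calls these were 481 and 4820, 301 and 2672, 631 and 2218, 104 and 454, 0 and 5, 4296 and 291, and 4990 and 255, against 420 and 1393. The restricted fit and the background-subtracted fit called 0 genes, 0 members and 0 other pathway genes, with 2109 and 1714 genes at an unadjusted p under 0.05. Other pathway genes called were 46 with DESeq2, 28 with RLE factors, 31 with no filter, 8 without robust settings and 0 at a mean of at least 5 CPM, which also called 0 members. Library totals and the second scaling each called 3 members, and under the latter 4 members instead of 8 were lower with no overlap, a count chosen after seeing the data. The median over all members was -0.60 under the second scaling and -0.63 with library totals. The background-subtracted fit held only the 6 clearly expressed members, with a median of -0.73. For the same 6 the second scaling gave -0.79. Vwf reversed to 0.32 under the second scaling, 0.30 with library totals, 0.17 at a mean of at least 5 CPM and 0.098 after subtraction from its own counts, the last chosen after seeing the data. The other 8 members kept their direction in every alternative that gave a value. Leaving out 1 library gave 7 genes (without fasted library 3) to 5379 genes (without control library 3). It gave 0 to 6 members and 0 to 37 other pathway genes (the same libraries). The median over all members was then -1.34 to -0.82. In the restricted fit, leaving out 1 library gave 0 to 3 genes, 0 members and 0 other pathway genes. The median there, over the 6 clearly expressed members only, was -0.91 to -0.61.

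With the replicate number as a block 146 genes, 4 members (Nfe2 was lost) and 5 other pathway genes were called, and 0 of each in the restricted fit, where 1549 genes had an unadjusted p under 0.05. Deviations of same-numbered libraries correlated at -0.15, 0.13 and -0.26 over genes, and those of differently numbered libraries at -0.13 to 0.26. Deviations were taken from the mean of 3 libraries per group, which ties these values to each other. They cannot decide whether the numbers pair the libraries. The cause of these changes was not tested. Depth limits Ppbp most, with 20 to 60 counts per library.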

Other observations

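Genes of the megakaryocyte and platelet marker list lay on both sides of the limit for clear expression, 6 of 10 above it. Tubb1, the platelet beta-tubulin, had 1.96 to 7.21 times the background over the 6 libraries, Gp6, the platelet collagen receptor, 0.977 to 1.88 times, Clec1b, a platelet activation receptor, 1.64 to 2.36 times and Gp1bb 0.0323 to 0.48 times. Among the clearly expressed genes, Itga2b, the platelet integrin alpha chain, had 15.5 to 157 times, Gp5 16.7 to 187 times, Gp9 8.71 to 52.8 times, Gp1ba 4.06 to 37.3 times and Treml1 2.55 to 48.7 times the background. Gp1ba, Gp1bb, Gp5 and Gp9 encode parts of 1 receptor complex for von Willebrand factor. Pdgfb, a growth factor stored in granules, had the highest fold change of the 124 pathway genes tested (1.43, edgeR adjusted p 0.051), from counts of 0.392 to 1.94 times the background. These genes were chosen after their values were seen.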
